A study of Mus musculus with 6 samples.

Results

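Genes of prostaglandin and leukotriene synthesis and response, 10 in all, were followed in myeloid cells sorted from mouse gliomas: the cyclooxygenases Ptgs1 and Ptgs2, the terminal synthases Ptges and Hpgds, the prostaglandin E2 receptors Ptger2 and Ptger4, and the leukotriene genes Alox5, Alox5ap, Lta4h and Ltc4s. They were taken by symbol from the deposited count table, where all 10 were found among 23107 genes. All 10 also passed the filter on low counts, which 12950 genes passed in all. The cells bore CD11b and Gr-1 and came from the tumour microenvironment of C57BL/6 mice. In 3 libraries the tumour carried wild-type IDH1 (wtIDH1), and in the other 3 it carried mutant IDH1 (mIDH1), the form of this metabolic enzyme that is frequent in glioma. The sources used here give neither how the tumours were made nor the age of the mice, nor whether replicates came from separate or pooled mice. The p-values therefore rest on the spread between libraries, which may be only technical. The series concerns G-CSF from mutant IDH1 glioma cells and the suppression of immunity by myeloid cells. The comparison here is how the 10 genes differ with the genotype of the tumour.

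Prostaglandins and leukotrienes are lipid signals made from arachidonic acid, which phospholipases release from membranes. Cyclooxygenases turn it into prostaglandin H2, and terminal synthases such as Ptges (prostaglandin E2) and Hpgds (prostaglandin D2) finish the product. Prostaglandin E2 acts on immune cells largely through Ptger2 and Ptger4, which raise cyclic AMP, and it is known as a mediator by which myeloid cells restrain T cells in tumours. On the other branch 5-lipoxygenase (Alox5), helped by its partner protein FLAP (Alox5ap), makes leukotriene A4, from which Lta4h makes the neutrophil attractant leukotriene B4 and Ltc4s the cysteinyl leukotriene C4.

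Libraries held from 19728205 to 35093265 counts, and levels are given as CPM, counts relative to the size of the library, scaled by TMM to allow for differing RNA composition. The general leukocyte and myeloid genes looked at (Ptprc, Itgam, Itgb2, Lyz2, Cd14 and Sfpi1) were detected in every library, with a summed level of 10144 to 13872 CPM in wtIDH1 and 9675 to 14314 CPM in mIDH1. Of these 6 genes Cd14 was lower in mIDH1 and the others did not pass. Genes were called at an adjusted p under 0.05 in edgeR's quasi-likelihood test over all genes tested, and 1058 genes passed.

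In cells from mIDH1 tumours the inducible cyclooxygenase Ptgs2 fell 2.56-fold and the receptor Ptger4 fell 1.99-fold. None of the 10 genes rose, and the other 8 did not pass the test. Of all genes tested, 8.17% passed in either direction, 5.39% as lower and 2.78% as higher (698 and 360 genes, against 593 and 483 when scaled by library totals alone). The 10 genes were chosen with earlier results of these data known, so their counts beside these shares are a description only. Ptgs2 and Ptger4 were also the only 2 of the 10 whose groups did not overlap. Over all genes the groups did not overlap for 28.9%, with 14.9% lower and 14.0% higher in mIDH1. By DESeq2 and by limma voom too, Ptgs2 and Ptger4 fell and no member rose. At an unadjusted p under 0.05 there were 3, with Alox5ap added on the higher side. The median log2 fold change (mIDH1 minus wtIDH1) of the 10 genes was 0.17, with 6 positive, beside 0.06 for all genes tested. In the plot of levels by library the separation of the groups can be seen for each gene.

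**Figure D1:**
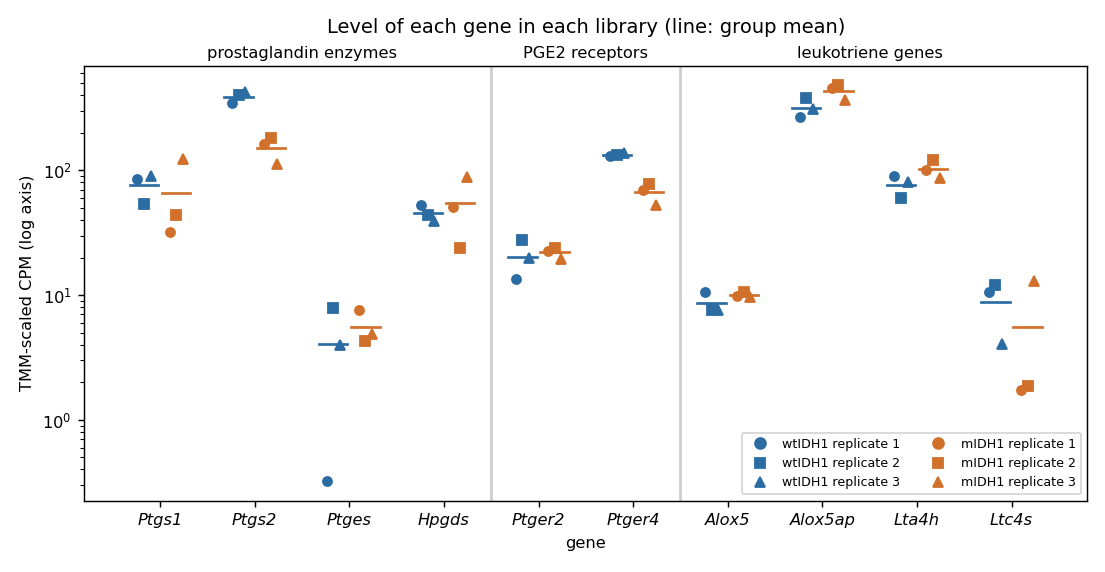
Level of each of the 10 genes in every library, as TMM-scaled CPM on a log axis, with wtIDH1 in blue, mIDH1 in orange, 1 marker shape per replicate number and a line at each group mean. Only for Ptgs2 and Ptger4 do all 3 mIDH1 libraries lie below all 3 wtIDH1 libraries.

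Ptgs2 encodes the cyclooxygenase that inflammatory signals switch on. It lies on chromosome 1 from 150100031 to 150108227 on the plus strand (mm10, coordinates counted from 1). Its level was 345, 401 and 426 CPM in the wtIDH1 libraries and 163, 181 and 113 CPM in the mIDH1 libraries. Every mIDH1 value was thus well below the lowest wtIDH1 value, and within a group the highest library was 1.23 times (wtIDH1) or 1.61 times (mIDH1) the lowest. The group means were 391 ± 41.2 and 152 ± 35.6 CPM (SD, n = 3 each), a log2 fold change of -1.36 ± 0.20 (SE; 95% interval -1.79 to -0.93) at an adjusted p of 0.0018. Ptgs2 passed in all 14 alternative settings, with log2 fold changes between -1.50 and -1.18 when 1 library was left out. In bulk RNA of a sorted population, fewer cells that express a gene and less RNA per cell cannot be told apart.

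Ptger4 encodes EP4, a receptor through which prostaglandin E2 raises cyclic AMP. It lies on chromosome 15 from 5206661 to 5244187 on the minus strand. The wtIDH1 libraries were at 131, 134 and 137 CPM and the mIDH1 libraries at 69.3, 78.5 and 53.1 CPM. The wtIDH1 values were nearly equal, and the highest mIDH1 library was far below them. The means of 134 ± 3.01 and 67.0 ± 12.8 CPM (SD, n = 3 each) differed by a log2 fold change of -0.996 ± 0.19 (SE; 95% interval -1.40 to -0.59) at an adjusted p of 0.0071. Ptger4 passed in all 14 alternative settings, with an adjusted p of up to 0.041. The libraries do not mark strand, and in the GENCODE annotation the exons of Ptger4 overlap exons of Ttc33 on the opposite strand over 82 bases and the pseudogene Gm15937 over 1015 bases, so reads there cannot be assigned by strand.

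The promoters of these 2 genes, the only members that fell, are shown as RefSeq gives them (GRCm38.p6), from 250 bases before the start of the transcript to 50 bases from it. Capitals mark matches to the motifs searched.
Ptgs2, chr1:150099781-150100080, plus strand: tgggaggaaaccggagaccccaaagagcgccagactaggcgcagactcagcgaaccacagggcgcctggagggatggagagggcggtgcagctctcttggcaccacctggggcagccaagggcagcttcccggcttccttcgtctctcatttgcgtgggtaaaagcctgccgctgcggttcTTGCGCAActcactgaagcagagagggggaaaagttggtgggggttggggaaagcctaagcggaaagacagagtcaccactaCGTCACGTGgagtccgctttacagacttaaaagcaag
Ptger4, chr15:5244138-5244437, minus strand: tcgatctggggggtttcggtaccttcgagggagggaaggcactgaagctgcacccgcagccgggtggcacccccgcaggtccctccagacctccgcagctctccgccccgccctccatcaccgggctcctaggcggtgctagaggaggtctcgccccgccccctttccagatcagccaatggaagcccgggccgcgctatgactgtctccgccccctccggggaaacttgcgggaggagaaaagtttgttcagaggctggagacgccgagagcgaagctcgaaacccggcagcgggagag

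On both strands 10 motifs were searched, and the Ptgs2 window held matches to 4 of them. The C/EBP motif TTGCNNAA matched from 69 to 62 bases before the start, and was present in 10.8% of all 32851 promoters of this length. The short form of the cyclic AMP element, TGACG, matched on the minus strand from base 14 to 18 of the annotated transcript (20.8% of all promoters). It overlapped the E-box CACGTG at bases 17 to 22 (7.15%), which itself contains the hypoxia core ACGTG (19.6%). The Ptger4 window held no match to any of the 10. The full cyclic AMP element TGACGTCA (1.79% of all promoters), AP-1 as TGACTCA or TGAGTCA (5.20%), kappa-B (4.51%), the element of interferon-induced genes (3.44%), TTCNNNGAA of STAT factors (8.30%) and TATAAA (13.6%) matched in no member. Of the 9 members with an entry, Ptger2 and Hpgds also held the C/EBP motif, and Alox5ap had no entry. All positions count from the start that RefSeq gives, and whether transcripts in these cells begin there was not tested. With another start the window and the positions would differ. A match here describes letters and does not show that a factor binds, and the absence of a match says only that these letters are not in this window.

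The other cyclooxygenase, the constitutive Ptgs1, did not pass. It was at 85.2, 53.9 and 89.3 CPM in wtIDH1 and at 32.2, 43.8 and 123 in mIDH1. Of the 6 libraries, mIDH1 replicate 3 was the highest while the other mIDH1 libraries were the 2 lowest. The log2 fold change was -0.20 ± 0.40 (SE; 95% interval -1.07 to 0.66, adjusted p = 0.823). Without mIDH1 replicate 3 Ptgs1 fell, with a log2 fold change of -1.001 and an adjusted p of 0.030, so that 3 members were lower. Without mIDH1 replicate 1 or 2 its sign turned, to 0.13 and 0.02.

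The terminal synthases did not pass either. Hpgds, the prostaglandin D2 synthase of blood cells, was at 52.9, 43.9 and 39.5 CPM in wtIDH1 and at 50.5, 23.8 and 89.3 in mIDH1, so that the mIDH1 group held both the lowest and the highest library. Its log2 fold change was 0.26 ± 0.36 (SE; 95% interval -0.53 to 1.05, adjusted p = 0.741) and turned to -0.29 without mIDH1 replicate 3. Ptges, the inducible prostaglandin E2 synthase, was low throughout. Its levels were 0.323, 7.88 and 3.98 CPM in wtIDH1, where replicate 1 held 7 counts, and 7.57, 4.25 and 4.85 CPM in mIDH1. The interval of its log2 fold change ran from -1.43 to 2.32 (adjusted p = 0.820), and the value changed from 0.45 to -0.10 without wtIDH1 replicate 1 and to 1.36 without wtIDH1 replicate 2.

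Ptger2, the gene of EP2, did not pass while Ptger4 fell, and the difference between the 2 receptors was not tested. Ptger2 was at 13.5, 27.5 and 19.7 CPM in wtIDH1 and 22.8, 23.9 and 19.6 in mIDH1, with all mIDH1 values inside the wtIDH1 range. The log2 fold change was 0.12 ± 0.32 (SE; 95% interval -0.56 to 0.81, adjusted p = 0.871), and it was -0.10 without wtIDH1 replicate 1. Annotated antisense genes overlap 4.74% and 2.77% of its exon length.

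None of the 4 leukotriene genes passed. The most abundant was Alox5ap, at 268, 378 and 308 CPM in wtIDH1 and 461, 480 and 368 in mIDH1. The groups overlapped only in that mIDH1 replicate 3 lay below wtIDH1 replicate 2. Its log2 fold change was 0.46 ± 0.18 (SE; 95% interval 0.06 to 0.85), at an unadjusted p of 0.027 and an adjusted p of 0.155, and it did not pass in any of 14 alternative settings (adjusted p from 0.068 to 0.393). An antisense gene, Gm19719, overlaps 13.3% of its exon length.

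Lta4h, whose hydrolase makes leukotriene B4, was at 89.5, 60.2 and 80.1 CPM in wtIDH1 and 101, 120 and 87.4 in mIDH1. Here mIDH1 replicate 3 lay just below wtIDH1 replicate 1, and the other mIDH1 libraries were above all wtIDH1 libraries (log2 fold change 0.43 ± 0.20 with a 95% interval of -0.01 to 0.86, adjusted p = 0.240). Alox5 itself was at 10.6, 7.58 and 7.56 CPM in wtIDH1 and 9.84, 10.6 and 9.60 in mIDH1. These values lay close together in both groups, and the interval of the log2 fold change ran from -0.68 to 1.13 (adjusted p = 0.816).

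Ltc4s was at 10.5, 12.1 and 4.03 CPM in wtIDH1 and 1.75, 1.86 and 13.02 in mIDH1. The last of these, mIDH1 replicate 3, was the highest of all 6 libraries, 7.44 times the lowest of its own group. The log2 fold change was -0.69 ± 0.77 (SE; 95% interval -2.35 to 0.98, adjusted p = 0.666), and it was -2.29 without mIDH1 replicate 3 (adjusted p = 0.077). The antisense gene Gm26542 overlaps 26.4% of the exon length of Ltc4s. In the plot of group differences the points without mIDH1 replicate 3 stand apart for Ltc4s and Ptgs1.

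**Figure D2:**
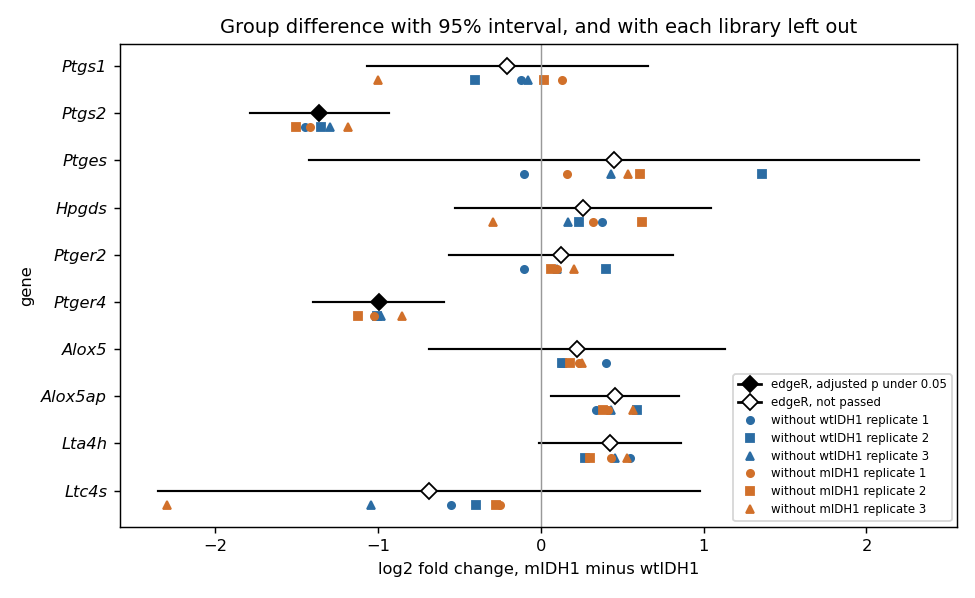
Log2 fold change (mIDH1 minus wtIDH1) of each gene with its 95% interval (diamond and line, filled where the adjusted p was under 0.05) and, below each line, the value with each library left out. Ptgs2 and Ptger4 stayed between -1.50 and -0.85 with any library left out, while Ptgs1, Ptges, Hpgds and Ptger2 changed sign.

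Within the mIDH1 group 1 library took opposite places for different members. In mIDH1 replicate 3 Ptgs1, Hpgds and Ltc4s were at their highest of the 6 libraries and Ptgs2 and Ptger4 at their lowest. Summed levels of marker genes were also highest in this library for macrophages and microglia. Of 12 macrophage genes 7 rose in mIDH1, beside 2.78% of all genes tested. All 12 had positive log2 fold changes (median 0.94, 10 at an unadjusted p under 0.05). This list was chosen with earlier results of these data known, so its counts are a description only. The sum of the list was 4843 to 6141 CPM in wtIDH1, 8066 and 8410 CPM in mIDH1 replicates 1 and 2, and 15594 CPM in mIDH1 replicate 3. The 9 microglia genes, of which 1 rose (beside the same 2.78%), summed to 818 to 1217 CPM in wtIDH1, 764 and 891 CPM in mIDH1 replicates 1 and 2, and 1482 CPM in mIDH1 replicate 3. Of these 9 genes 4 had positive log2 fold changes (median -0.37), and mIDH1 replicate 3 and wtIDH1 replicate 1 were each the highest library for 4 of them. For the macrophage list mIDH1 replicate 3 was highest for 10 of 12 genes. The part of these cells in the values of the members was not tested.

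**Figure D3:**
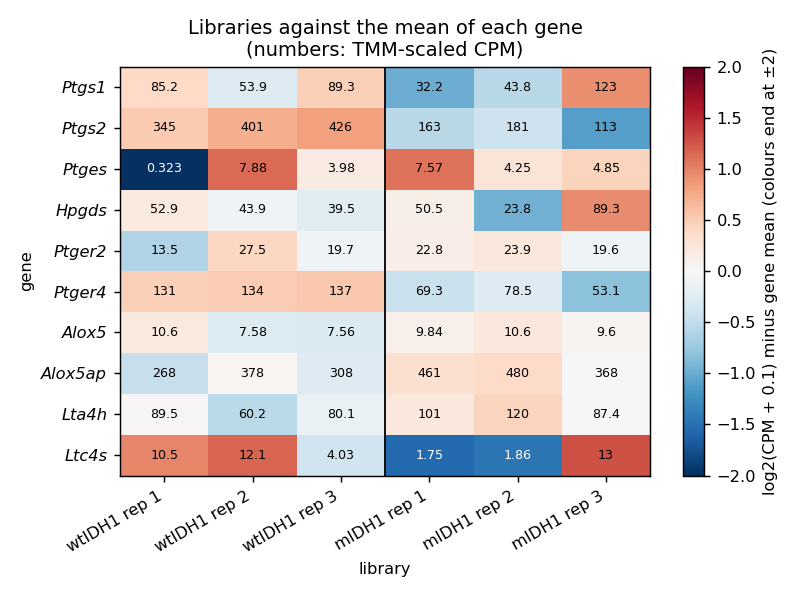
Deviation of each library from the mean of each gene, on the log2(CPM + 0.1) scale (red above, blue below), with the TMM-scaled CPM printed in each cell. Ptgs2 and Ptger4 divide the groups, and mIDH1 replicate 3 is the highest library for Ptgs1 (123 CPM), Hpgds (89.3 CPM) and Ltc4s (13.02 CPM).

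Several other blood cells are known for these enzymes, and their markers were looked at as well. Mast cells and basophils express Hpgds, Ltc4s and Alox5, but of 12 of their marker genes 9 had at most 3 counts in every library, and Cpa3, Mcpt8, Mcpt4, Tpsb2, Tpsab1, Ms4a2, Fcer1a and Prss34 had 0 in all 6, which allows up to 0.0855 to 0.152 CPM per library (counting error only). The list summed to 52.2 to 60.7 CPM in wtIDH1 and 26.9 to 90.7 in mIDH1, nearly all of it from Kit and Hdc, which other cells express too. The eosinophil genes Epx and Ear1 also had 0 counts in all 6 libraries, and the 8 eosinophil genes together reached 28.9 to 30.6 CPM in wtIDH1 and 15.6 to 45.9 CPM in mIDH1, lowest in mIDH1 replicate 3. Platelet genes, whose cells carry Ptgs1, summed to 13.8 to 18.5 CPM in wtIDH1 and 22.1 to 55.7 CPM in mIDH1. Of 5 tested, Pf4 and Ppbp rose, beside 2.78% of all genes tested. The other 3 had negative log2 fold changes that did not pass (median of the list -0.43). Of 8 monocyte genes 1 rose and 2 fell, beside 2.78% and 5.39% of all genes tested (summed 5742 to 9777 CPM in wtIDH1, 5244 to 8131 CPM in mIDH1). Of 11 neutrophil genes tested 3 rose and 1 fell, beside the same shares (365 to 489 and 460 to 626 CPM). Of these 11 neutrophil genes 9 had positive log2 fold changes, and 9 were at an unadjusted p under 0.05 in edgeR's test. The neutrophil gene that fell was Csf3r, the G-CSF receptor, with 2315 to 6847 counts per library. S100a8, among the most abundant transcripts of neutrophils, had 55 to 393 counts per library. The counts of both genes are not scaled to the size of the library. By edgeR no dendritic cell gene passed of 8 (112 to 142 and 65.5 to 136 CPM; none at an unadjusted p under 0.05), and no T or NK cell gene of 7 (143 to 244 and 210 to 384 CPM; 4 at an unadjusted p under 0.05). The part of all these cells in the results was not tested.

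Levels of different genes were compared per kilobase of the principal transcript in the GENCODE M21 annotation. In wtIDH1 Alox5ap led with 254 ± 44.4 CPM per kilobase, followed by Ptgs2 with 87.7 ± 9.24. Ptger4 (40.9 ± 0.92), Lta4h (37.7 ± 7.37) and Ptgs1 (26.6 ± 6.75) came next, with neighbours in this order overlapping between libraries. Ltc4s (13.7 ± 6.57) and Hpgds (13.1 ± 1.96) overlapped too, as did Ptger2 (5.50 ± 1.90) and Alox5 (3.04 ± 0.62), and Ptges was last with 1.11 ± 1.04 (SD, n = 3 libraries each). In mIDH1 Alox5ap again led with 349 ± 47.8 CPM per kilobase, and Lta4h stood second with 50.7 ± 8.08, above Ptgs2 at 34.2 ± 7.99 with no overlap of their libraries. The next genes overlapped each with its neighbour, from Ptgs2 through Ptgs1 (23.1 ± 17.1), Ptger4 (20.5 ± 3.93), Hpgds (15.7 ± 9.48) and Ltc4s (8.54 ± 9.98) to Ptger2 (5.99 ± 0.60). Alox5 (3.55 ± 0.19) and Ptges (1.52 ± 0.49) closed the order. FLAP transcripts were thus far more abundant than those of the lipoxygenase it serves: per kilobase Alox5ap exceeded Alox5 by 56.9 to 112 times in wtIDH1 and by 86.5 to 106 times in mIDH1 libraries.

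Ratios of transcripts within a library were also taken for pairs of members, and they do not measure enzyme activity or products. Per kilobase, Ptgs2 exceeded Ptgs1 by 2.61, 4.79 and 3.07 times in wtIDH1 and by 3.27 and 2.66 times in mIDH1 replicates 1 and 2, but in mIDH1 replicate 3 the ratio was 0.591. Ptgs2 thus made up 72.3 to 82.7% of the cyclooxygenase transcripts in 5 libraries and 37.2% in mIDH1 replicate 3, and the groups overlapped. Ptger4 exceeded Ptger2 by 10.9, 5.48 and 7.83 times in wtIDH1 and by 3.43, 3.71 and 3.06 times in mIDH1, with no overlap. The ratio of Ltc4s to Lta4h, the enzymes that compete for leukotriene A4, was 0.368, 0.626 and 0.157 in wtIDH1 and 0.0541, 0.0485 and 0.466 in mIDH1, where replicate 3 lay within the wtIDH1 range.

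Other genes of the pathway mostly did not pass. Of 20 tested genes listed under arachidonate release and re-esterification, 1 rose and none fell by edgeR, beside 2.78% and 5.39% of all genes tested. At an unadjusted p under 0.05 there were 5 (median log2 fold change 0.10), and Dagla and Pla2g4c also fell by DESeq2. The 1 that rose was Pla2g7, the secreted hydrolase of platelet-activating factor, at 922, 979 and 850 CPM in wtIDH1 and 1296, 1625 and 2205 in mIDH1 (log2 fold change 0.90 ± 0.20, with the SE here and for the genes that follow, adjusted p = 0.016). It did not pass without wtIDH1 replicate 1, 2 or 3 (adjusted p = 0.056, 0.082 and 0.086), and an antisense gene overlaps 10.98% of its exon length. Pla2g4a, the cytosolic phospholipase that feeds both branches, was at 66.1 ± 21.7 against 77.5 ± 12.3 CPM in wtIDH1 and mIDH1 (SD, n = 3 each; adjusted p = 0.642). Of 14 tested genes of other lipoxygenases and leukotriene metabolism 1 rose and none fell, beside the same shares (2 at an unadjusted p under 0.05, median 0.31, none lower by DESeq2 or limma voom). This was Dpep2, a dipeptidase that converts leukotriene D4 to E4, at 95.1, 74.0 and 93.3 CPM in wtIDH1 and 157, 183 and 139 in mIDH1 (log2 fold change 0.87 ± 0.18, adjusted p = 0.012). Dpep2 did not pass without wtIDH1 replicate 2 or 3 or mIDH1 replicate 2 (adjusted p = 0.088, 0.052 and 0.057), and 2 overlapping models share its name in the annotation.

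In 4 further lists no gene passed edgeR's test in the full set of libraries, and none passed by DESeq2 or limma voom. Among 6 other prostanoid synthases (2 at an unadjusted p under 0.05, median 0.24), Ptges3, a cochaperone also described as a prostaglandin E2 synthase, was at 128 ± 1.41 against 178 ± 9.86 CPM in wtIDH1 and mIDH1 (SD, n = 3 each, as for the other levels given with an error; log2 fold change 0.48, adjusted p = 0.082). The thromboxane synthase Tbxas1 was at 123 ± 10.9 and 91.1 ± 24.9 CPM (adjusted p = 0.245). Among 6 genes of prostanoid inactivation and transport (none at an unadjusted p under 0.05, median 0.32) Hpgd, the main inactivating dehydrogenase, was low, at 5.14 ± 2.45 and 8.23 ± 3.17 CPM (adjusted p = 0.560), and Abcc4, an exporter of prostaglandins, was at 63.2 ± 18.2 and 52.1 ± 13.6 CPM (adjusted p = 0.590). All 4 other prostanoid receptors had negative log2 fold changes (1 at an unadjusted p under 0.05, median -0.78). Without mIDH1 replicate 3, 1 of the 4 fell. All 6 receptors for leukotrienes, lipoxins and resolvins had positive values (1 at an unadjusted p under 0.05, median 0.48), and Ltb4r1 and Fpr2 rose without mIDH1 replicate 3. Ltb4r1, the high-affinity leukotriene B4 receptor, was at 21.3, 23.0 and 26.6 CPM in wtIDH1 and 40.2, 52.5 and 22.7 in mIDH1 (log2 fold change 0.70, adjusted p = 0.194, and 0.97 with an adjusted p of 0.042 without mIDH1 replicate 3). Cysltr1, a receptor for cysteinyl leukotrienes, was at 27.2 ± 12.5 and 32.7 ± 12.9 CPM (adjusted p = 0.749), and the chemerin and resolvin receptor Cmklr1 at 381 ± 19.0 and 438 ± 58.4 CPM (adjusted p = 0.525).

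Of 17 genes listed for cyclic AMP, the messenger of Ptger2 and Ptger4, 8 were lower in mIDH1, beside 5.39% of all genes tested. None rose by edgeR, DESeq2 or limma voom (9 at an unadjusted p under 0.05, median -0.69). The list holds response genes, but also parts of the signalling itself (Prkaca, Prkar1a, Creb1 and Crtc2) and phosphodiesterase genes. It was chosen with earlier results of these data known, so its share beside that of all genes is a description only. Among the 8 were the orphan nuclear receptors Nr4a1, Nr4a2 and Nr4a3 and the kinase gene Sik1, early response genes that many other stimuli also induce. Nr4a2 fell from 259, 262 and 195 CPM to 45.2, 47.0 and 26.0 CPM (log2 fold change -2.60 ± 0.24, adjusted p = 0.00011). The log2 fold changes of Nr4a1, Nr4a3 and Sik1 were -1.47, -1.01 and -1.01 (adjusted p = 0.0096, 0.0099 and 0.0053). Without wtIDH1 replicate 2 only 2 of the 17 fell, and Nr4a1 and Nr4a3 did not pass (adjusted p = 0.060 and 0.069). Without wtIDH1 replicate 3 or mIDH1 replicate 2, 4 and 5 of the 17 fell. Whether these genes followed prostaglandin E2 was not tested.

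Of 19 genes that induce Ptgs2 or control its mRNA, 3 fell, beside the same 5.39%, and none rose by edgeR (9 at an unadjusted p under 0.05, median -0.36; none rose by DESeq2 or limma voom). They were the cytokine genes Il1a and Il1b and the NF-kB subunit gene Nfkb1. By DESeq2 and by limma voom 5 fell, with the C/EBP factor gene Cebpb and the receptor gene Tlr2 added. Il1b, an inducer of Ptgs2, was at 2226, 2308 and 2494 CPM in wtIDH1 and 1085, 1226 and 415 in mIDH1 (log2 fold change -1.37 ± 0.30, adjusted p = 0.017). Like Ptgs2 and Ptger4, it was lowest in mIDH1 replicate 3. Nfkb1 had a log2 fold change of -0.91 (adjusted p = 0.011) and Il1a one of -1.71 (adjusted p = 0.00028). Without wtIDH1 replicate 2 or 3 only Il1a fell (adjusted p = 0.075 and 0.069 for Il1b, 0.068 and 0.065 for Nfkb1), and without mIDH1 replicate 3 the adaptor gene Myd88 rose (adjusted p = 0.044). A gene annotated on the opposite strand overlaps 11.25% of the exon length of Il1a. This list too was chosen with earlier results of these data known, so its share is a description only. In the plot of gene lists the cyclic AMP list and this one hold most of the lower calls.

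**Figure D4:**
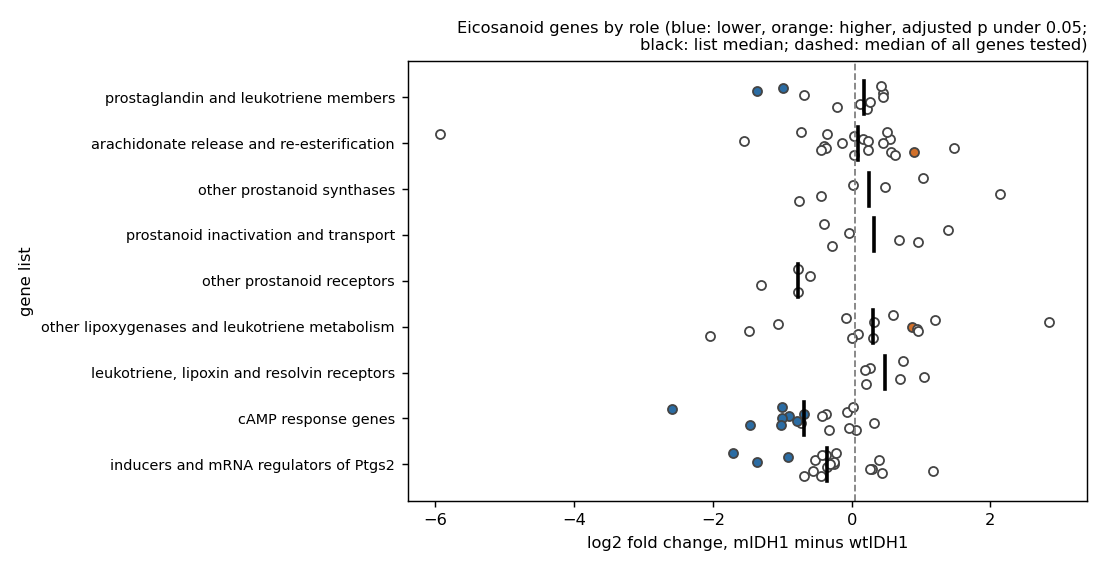
Log2 fold change (mIDH1 minus wtIDH1) of every tested gene in each list, in blue where lower and orange where higher at an adjusted p under 0.05, with a black bar at the list median and a dashed line at the median of all genes tested (0.06). The lower calls lie among the 10 genes (2), the cyclic AMP response genes (8) and the inducers and regulators of Ptgs2 (3).

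Across the 6 libraries Ptgs2 and Ptger4 followed each other closely (Pearson r of log2 CPM 0.995, the highest of any pair of members), a description over 6 points that share the group difference. Among 8966 named genes of at least 5 CPM, the pattern of Ptgs2 was most like that of Rbm5, Clip1 and Rab44 (r = 0.998, 0.998 and 0.997). That of Ptger4 was most like Rbm5, Aim2 and Cpsf7 (r = 0.999, 0.999 and 0.998). Rbm5, an RNA-binding protein gene on both lists, was at 128, 141 and 141 CPM in wtIDH1 and 63.4, 71.4 and 45.4 in mIDH1.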

How the data were processed

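RNA was measured by poly(A) RNA-seq, with a kit that does not mark strand, in 3 wtIDH1 and 3 mIDH1 libraries. The authors deposited a table of estimated counts per gene, unscaled. The build was mm10, and HTSeq, Cuffdiff 2.1.1 with Cufflinks, TopHat2 2.0.13, Bowtie2 2.2.1 and FastQC are named, per the submitters' processing notes. The sources used here do not give the annotation, settings or handling of reads that match several genes. Values (1.31 to 1.61% not whole to within 1e-09) were rounded.

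Genes were kept by filterByExpr (minimum count 10, minimum total 15), scaled by TMM and tested with edgeR 4.0.16 (glmQLFit, glmQLFTest, group only) under R 4.3.3, two-sided, with p-values adjusted by Benjamini-Hochberg over 12950 genes. Intervals use the SE of the log2 fold change and the moderated degrees of freedom of the test. Counts of replicates differed beyond sampling noise (chi-square over its degrees of freedom 50.3 to 144), so none was merged. DESeq2 1.42.0, limma 3.58.1 (voom), other scalings and filters, a replicate block and leaving out each library were alternatives.

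Members and gene lists were chosen with earlier results of these data known. Named genes are all members, up to 4 called genes per list (or the most abundant if none was called) and, for Ptgs2 and Ptger4, the 3 most correlated genes (log2 CPM, prior count 2). Pla2g4a, Tbxas1, Hpgd, Ltb4r1, Cysltr1, Pla2g4c, Dagla, Akr1b3, Acsl1, Acsl4, Fpr2, Cebpb, Tlr2 and Myd88 were added after their values were seen. The gene this rule names among the other prostanoid receptors is not reported here. Of the listed symbols 6 were matched through older names. The test was tried on simulated counts in which 200 genes drawn at random were changed. More genes were called in the data (1058), so recovery in the data may differ from that in the simulation. On the simulated counts the test recovered 16.3% of the genes with a true log2 fold change of 1 in size and 55.1% of those with 2, with 5 false calls. A gene that did not pass may therefore still have changed.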

Additional observations from a re-analysis of the deposited data

How the results depend on the processing

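Ptgs2 and Ptger4 were the members called lower, and no member higher, in each of 14 alternatives, with Ptgs1 added only without mIDH1 replicate 3. Of 140 values of members under alternatives, 133 kept their direction and side of the threshold. The direction changed for Hpgds with limma voom (-0.0076), and with 1 library left out for Hpgds (-0.29 to 0.62), Ptgs1 (-1.001 to 0.13), Ptges (-0.10 to 1.36), Ptger2 (-0.10 to 0.40) and Cysltr1 (-0.088 to 0.55). The cause was not tested. Over all genes 1058 were called, against 1695 by DESeq2 and between 334 and 1033 with 1 library left out. Without wtIDH1 replicate 1, 2 or 3 the count was 665, 334 and 364. Without mIDH1 replicate 1, 2 or 3 it was 1029, 558 and 1033, and the cause of this spread was not tested. Lower genes were 66.0% of the 1058 calls, but 55.1% (483 higher, 593 lower) with library totals alone.

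With a replicate block the count was 585, both Ptgs2 (-1.38) and Ptger4 (-1.01) passed, Pla2g7 did not (adjusted p = 0.055) and 5 cyclic AMP response genes fell. The values showed no pairing by replicate number: deviations of same-numbered libraries correlated at -0.03, 0.03 and -0.05, and 2 of 6 libraries correlated best with their own number. These values cannot show whether same-numbered samples were collected or handled together. Ptges had 7 counts in wtIDH1 replicate 1 and 79 in the shallower wtIDH1 replicate 3, and whether depth limits it was not tested. Ptges3 rose with library totals alone (adjusted p = 0.048).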

Other observations

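Among the 20 tested genes of arachidonate release and re-esterification, 4 had groups that did not overlap without passing edgeR's test, Dagla and Pla2g4c lower and Acsl1 and Acsl4 higher in mIDH1. Over all genes the groups did not overlap for 28.9%. Dagla, a diacylglycerol lipase that makes the arachidonate precursor 2-arachidonoylglycerol, was at 13.7, 16.3 and 17.2 CPM in wtIDH1 and 8.84, 3.85 and 3.33 CPM in mIDH1 (adjusted p = 0.061, from 0.016 by DESeq2 to 0.191 over 14 alternatives, of which it passed 3). Pla2g4c, a relative of cytosolic phospholipase, held 65, 33 and 11 counts in wtIDH1 and 1, 1 and 0 counts in mIDH1 (adjusted p = 0.0545, from 0.0068 by DESeq2 to 0.224 over 13 alternatives, of which it passed only DESeq2). Acsl1 and Acsl4, acyl-CoA synthetases that return arachidonate to membranes, had log2 fold changes of 0.55 and 0.51 (adjusted p = 0.10 and 0.134). Akr1b3, an aldose reductase, held 667 counts in wtIDH1 replicate 2 and 919 in mIDH1 replicate 2, and was listed at 0 in the other 4 libraries.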
